A study of Mus musculus with 2 samples.

Results

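The Gzmk CD8 memory T cells described here were 270 of the 7400 single cells kept from the leukocytes of mouse RPE and choroid. RPE is the retinal pigment epithelium, the pigmented layer behind the photoreceptors, and the choroid is the vascular layer beneath it. There were 131 of these cells among 3982 kept cells of the IL-17RA CKO library (KO below), and 139 among 3418 kept cells of the IL-17ra fl library (flox below). The KO library came from mice with a conditional knockout of Il17ra, the receptor subunit A for interleukin-17. The flox library carried the floxed gene without a knockout in its label. Both groups were given the oxidant sodium iodate (NaIO3), which damages the RPE, at 20 mg per kg by intraperitoneal injection, and no untreated group was analysed here. Viable CD45+ cells were sorted from digested eye tissue and captured for droplet sequencing of transcript 3' ends. The labels do not state the promoter that drives the Cre, the cells in which Il17ra was deleted, the exons removed, the number of pooled mice, their age or the time after injection.

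The cells were chosen by their own transcripts, counted as unique molecular identifiers (UMIs, 1 per captured RNA molecule). A kept cell had at least 1000 UMIs, at least 300 genes and under 10% mitochondrial UMIs. A member held at least 2 UMIs of Cd3d, Cd3e and Cd3g together, at least 1 UMI of Cd8a or Cd8b1 and at least 1 UMI of Gzmk. It held no UMI of Cd4, Cd79a, Klrg1, Pdcd1, Klra1, Klra6 or Klra7, and fewer than 5 UMIs of Lyz2. Without the conditions on Klrg1, Pdcd1, Klra and Gzmk, the same gate gave 990 CD8 T cells in KO and 631 in flox.

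CD8 T cells recognise peptides held by MHC class I and kill the cells that carry them. After a response some persist as memory cells, in blood, in lymphoid organs or lodged in tissue. Granzyme K, the product of Gzmk, is a granule protease with trypsin-like cutting. In mice and humans it marks a memory state with the transcription factor Eomes and the chemokine Ccl5, and it differs from terminal killer cells, which carry granzymes A and B, Klrg1 and Cx3cr1.

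Each group was 1 library, so differences between KO and flox have no replicate check, no test was possible and no p-value is given. The intervals are 95% intervals that cover counting error only, not differences between mice. They are exact, except the approximate ones of differences of shares. The KO library held 35944330 UMIs and the flox library 38623933 UMIs. Of the kept cells, 3 barcodes occurred in both libraries and none of them was a member. The libraries also differed in the sex of the cells, read from Xist on the one hand and Ddx3y, Eif2s3y, Kdm5d and Uty on the other. Among members, 43 KO cells (32.8%) and 101 flox cells (72.7%) were female, and 59 KO cells (45.0%) and 20 flox cells (14.4%) were male. The rest held transcripts of neither kind or of both. Sex-specific values therefore stand beside the main results, and which mouse a cell came from is not known.

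Il17ra itself (chr6:120463247-120487559, plus strand, GRCm38) was detected in 47 KO members (35.9%) and 51 flox members (36.7%). Its level was 66.8 CPM (UMIs of a gene per 1000000 UMIs of the class) in KO members and 68.6 CPM in flox members, a ratio of 0.973 with an interval of 0.703 to 1.35. A 3' count does not check a deletion elsewhere in the gene, and the cells meant to lose Il17ra are not named, so this value checks neither label. Its partner Il17rc had 1 UMI in KO members and 0 in flox members. Il17a, the cytokine, also had 1 UMI in KO members and 0 in flox members.

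Depth was alike in the members of both libraries. The median KO member had 7637 UMIs (1391 to 28588) and 2552 genes, and the median flox member had 8034 UMIs (1912 to 27442) and 2671 genes. The mitochondrial share of UMIs was 1.48% in KO members and 1.53% in flox members. In all, 1122972 UMIs in KO members and 1224234 in flox members stand behind the values below.

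Gzmk cells made up a smaller share of the CD8 T cells in KO. They were 13.2% of the KO CD8 T cells (11.2 to 15.5) and 22.0% of the flox CD8 T cells (18.9 to 25.5). The difference was -8.80 percentage points, with an interval of -12.7 to -5.00. Of all T cells they were 7.67% in KO and 9.93% in flox, a difference of -2.26 points (-4.30 to -0.265). Of all kept cells they were 3.29% in KO and 4.07% in flox, and the interval of that difference, -1.66 to 0.0807 points, included 0.

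The share of CD8 T cells was lower in KO for each sex as well. In female cells it was 15.5% in KO and 22.0% in flox, a difference of -6.49 points (-12 to -0.589). In male cells it was 13.8% in KO and 21.3% in flox, and the interval, -17.3 to 0.393 points, included 0. Kept cells were also thinned to 2000 UMIs and gated again, with 3858 KO cells and 3346 flox cells deep enough. The gate then held 114 of 831 KO CD8 T cells (13.7%) and 136 of 513 flox CD8 T cells (26.5%). The difference was -12.8 points. In a separate thinning of the members, Gzmk was still found in 59.2% of KO cells and 56.9% of flox cells. Cells that lost their Klrg1, Pdcd1 or Klra UMIs could enter the gate. The thinned set is therefore not the same set of cells, and the wider gap is not a depth check of the members.

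The other CD8 T cells fell into 4 classes, taken in this order. Cells with Klrg1, a receptor of terminal effector cells, were 190 of 990 in KO (19.2%) and 44 of 631 in flox (6.97%). Cells with Pdcd1, which encodes the inhibitory receptor PD-1, were 367 in KO (37.1%) and 252 in flox (39.9%). Cells with the Ly49 receptors Klra1, Klra6 or Klra7 were 41 in KO (4.14%) and 44 in flox (6.97%). Cells with none of these and no Gzmk were 261 in KO (26.4%) and 152 in flox (24.1%). The Klrg1 class was thus larger in KO, by 12.2 points (8.97 to 15.3), while the Gzmk-negative class differed by 2.28 points with an interval that included 0 (-2.10 to 6.53). Shares of 1 total are not independent. Among the cells free of Klrg1, Pdcd1 and Klra, members were 33.4% in KO and 47.8% in flox.

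**Figure D1:**
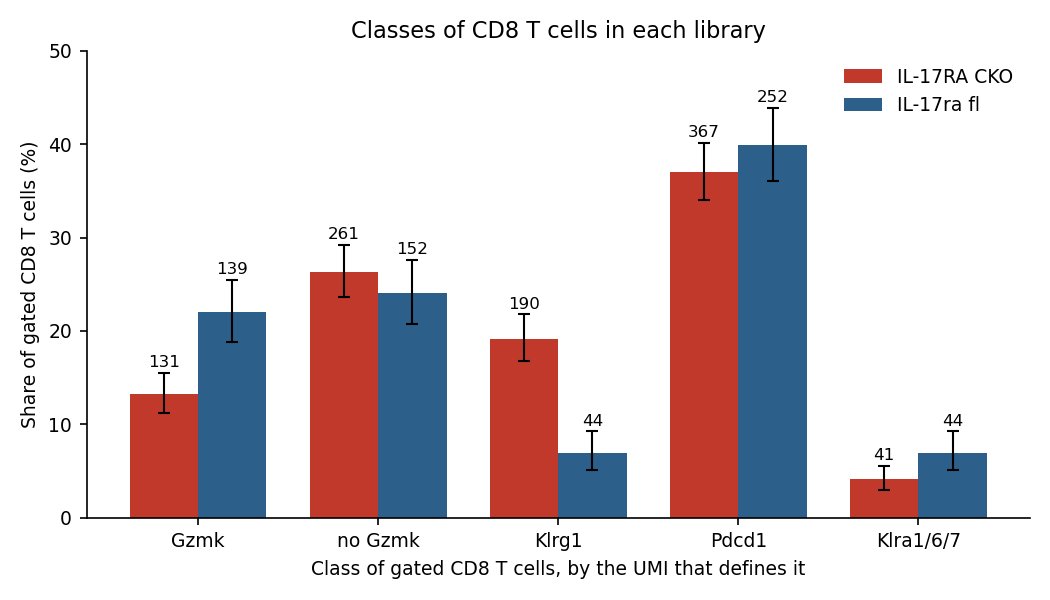
Share of the gated CD8 T cells in each class (percent, y axis) in the KO and the flox library, with bars for shares and lines for exact 95% counting intervals. Gzmk cells were 13.2% in KO and 22.0% in flox, and Klrg1 cells were 19.2% in KO and 6.97% in flox.

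Gzmk (chr13:113171608-113225908, minus strand, GRCm38) was used to choose the cells, so its level is a description. It reached 394 CPM in KO members and 470.5 CPM in flox members. The median member of each library held 3 Gzmk UMIs, and the highest held 13 in KO and 16 in flox. The threshold cut through many cells: 42 KO members and 26 flox members stood just inside it with 1 UMI, and 89 KO members (67.9%) and 113 flox members (81.3%) had at least 2. Free Gzmk RNA in droplets was rare, since 3 of 913 KO B cells (0.329%) and 2 of 583 flox B cells (0.343%) held a Gzmk UMI, at median depths of 6352 and 5997 UMIs.

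Gzmk was also present outside the members. A Gzmk UMI was found in 36.8% of KO Klrg1 cells and 81.8% of flox Klrg1 cells, and in 60.2% of KO Pdcd1 cells and 87.3% of flox Pdcd1 cells. Gated CD4 T cells held it in 20.1% of 278 cells in KO and 12.7% of 338 cells in flox. The members are therefore the Gzmk cells without those receptors, not all Gzmk-expressing T cells of the tissue.

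The 250 bases before the Gzmk start site are shown because Eomes, a T-box factor, marks the same cells. They lie at chr13:113180966-113181215 (minus strand, GRCm38.p6, sequence from RefSeq). The start site is that of the RefSeq entry, which lies inside the longer gene interval of GENCODE given above. The capitals mark the single match to GGTGTGA, a T-box core searched on both strands, at base -75 from the start site.
Gzmk: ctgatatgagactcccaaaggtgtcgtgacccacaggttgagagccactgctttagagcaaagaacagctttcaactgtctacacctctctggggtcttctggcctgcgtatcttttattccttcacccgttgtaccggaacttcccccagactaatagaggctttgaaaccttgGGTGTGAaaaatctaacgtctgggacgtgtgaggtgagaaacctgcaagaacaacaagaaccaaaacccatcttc
The same letters occur in 1095 of 32851 RefSeq promoter windows of this length (3.33%), and a match is a description, not a bound site.

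The label was checked on its 5 markers, of which Gzmk, Cd8a and Cd8b1 entered the rule. Cd8b1 was detected in 128 KO members (97.7%) and 136 flox members (97.8%). Ccl5 was detected in all 131 KO members and all 139 flox members, at 11464 CPM in KO and 11951 CPM in flox. The granule protein Nkg7 was likewise detected in every member. Eomes was detected in 62 KO members (47.3%) and 92 flox members (66.2%), against 0.219% of KO B cells and 0.172% of flox B cells. Its level was 136 CPM in KO members and 225 CPM in flox members, a ratio of 0.607 (0.494 to 0.742). In Klrg1 cells Ccl5 was higher, at 22221 CPM in KO and 20034 CPM in flox. In Pdcd1 cells it was at 9274 CPM in KO and 14377 CPM in flox. Nkg7 was at 2028 CPM in KO members and 2044 CPM in flox members, below its levels in Klrg1 and Pdcd1 cells. Eomes was lower in Klrg1 cells (75.8 CPM in KO, 180 CPM in flox) and Pdcd1 cells (104 and 184 CPM). No interval of these Eomes ratios lay beyond 1.5-fold. Ccl5, Nkg7 and Eomes were thus not particular to the members.

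Memory receptors were partly present. Il7r, the interleukin-7 receptor of long-lived T cells, was detected in 58 KO members (44.3%) and 78 flox members (56.1%). Tcf7, a factor of memory and stem-like T cells, was detected in 66 KO members (50.4%) and 82 flox members (59.0%). The lymph node homing receptor gene Ccr7 was scarce, found in 10 KO members and 16 flox members. Tox, a factor of chronically stimulated CD8 T cells, was found in 89 KO members (67.9%) and 114 flox members (82.0%). Il7r and Tcf7 were both lower in members than in the Gzmk-negative CD8 T cells described below. Il7r was at 239 CPM in KO members and 817 CPM in KO Gzmk-negative cells, and at 398 CPM in flox members and 757 CPM in flox Gzmk-negative cells. Tcf7 was at 156 against 331 CPM in KO and 132 against 305 CPM in flox. These genes therefore do not set the members apart as memory cells, and memory is used below only as part of the label.

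Several defining transcripts of other cells were at or near 0, while other genes of the same lists were not. Foxp3, of regulatory T cells, had no UMI in members, nor did Zbtb16, Trav11 or Trav1, of innate-like T cells. Trdc, of gamma-delta T cells, was found in 1 KO member and 4 flox members, and Ncr1, of natural killer (NK) cells, in 0 KO members and 2 flox members. The summed gamma-delta list of 7 genes had 73 UMIs in KO members and 104 in flox members. At least 1 of these UMIs was found in 22.1% of KO members and 25.2% of flox members. Its gene Tcrg-C2 was detected in 17.6% of KO members and 18% of flox members. The regulatory T list of 5 genes had 126 UMIs in KO and 244 in flox, in 35.9% of KO members and 48.9% of flox members. Its gene Ctla4 was detected in 32.1% of KO members and 38.1% of flox members. The NKT and MAIT list had 13 UMIs in KO members and 18 in flox members, and the NK list, which contains Eomes, had 264 in KO and 373 in flox. The RPE and photoreceptor list had 7 UMIs in KO members and 10 in flox members, and the erythroid and platelet list had 2 in KO and 10 in flox. The myeloid list of 12 genes had 280 UMIs in KO members and 221 in flox members, at most 45.5 per 10000 UMIs in a KO cell and 42.8 in a flox cell. The B cell list stood out in KO, with 661 UMIs in KO members and 123 in flox members and with a highest cell at 200.8 per 10000 UMIs in KO and 11.3 in flox. The median member was at 0 for it in both libraries.

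Members with more Gzmk were not simply members with more of every marker. Cells were taken by 1, 2 to 3, 4 to 7 and 8 or more Gzmk UMIs, with 42, 41, 37 and 11 KO cells and 26, 53, 42 and 18 flox cells. Eomes in these bins was at 96.5, 145, 113 and 299 CPM in KO, and at 158, 187, 229 and 372 CPM in flox. Ccr2, a chemokine receptor of tissue-infiltrating cells, was at 78.4, 130, 156 and 246 CPM in KO, and at 102, 120, 231 and 382 CPM in flox. The highest bins were thinly filled, but Ccr2 was higher in each bin than in the one before in both libraries also without them.

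Several effector genes ran the other way. Klrk1, the activating receptor NKG2D, was at 633, 453, 240 and 185 CPM in KO, and at 519, 407, 218 and 250 CPM in flox. Gzma was at 1049.5, 513, 595 and 0 CPM in KO and at 219, 23.9, 18.8 and 5.10 CPM in flox. Gzmb differed between the libraries, at 287, 247, 139 and 17.6 CPM in KO but 25.4, 100, 126 and 168 CPM in flox. Depth moved with the bins, at medians of 6813.5, 7149, 8243 and 8521 UMIs in KO and 6588.5, 7943, 7601 and 10453.5 UMIs in flox, and its part in these orders was not tested.

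Cells just outside the rule differed from the members in some genes and were close to them in others. Gzmk-positive CD8 cells with exactly 1 Klrg1 UMI, 15 in KO and 10 in flox, had 3170 CPM of Gzma in KO and 766 CPM in flox. Members had 645 CPM of Gzma in KO and 50.6 CPM in flox. Gzmk-positive CD8 cells with exactly 1 Pdcd1 UMI, 43 in KO and 65 in flox, had 495 CPM of Tox in KO and 855 CPM in flox. Tox was at 536 CPM in KO and 693 CPM in flox in members with 8 or more Gzmk UMIs. Eomes in the cells with 1 Pdcd1 UMI was at 148 CPM in KO and 196 CPM in flox. In members it was at 136 CPM in KO and 225 CPM in flox.

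The members were next set against the other CD8 T cells of their own library. The rule split these cells by expressed genes, so the contrasts are descriptions. A gene was measured if it had at least 20 UMIs in the pair of classes, and it was past the fold if the interval of the ratio lay beyond 1.5-fold. Against the Gzmk-negative class, 148 genes (1.74% of 8485) were higher in members in both libraries and 109 (1.28%) were lower in both.

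Named genes that were higher included the homing receptor gene Ccr2 and the factors Eomes and Maf. Ccr2 was at 135 CPM in KO members and 22.7 CPM in KO Gzmk-negative cells, and at 193 CPM in flox members and 50.5 CPM in flox Gzmk-negative cells. Eomes was at 136 against 33.4 CPM in KO and 225 against 47.5 CPM in flox. Maf, a transcription factor of interleukin-10 producing T cells, was at 73.9 against 14.7 CPM in KO and 100.5 against 23.2 CPM in flox. Each of these genes was more than 3-fold higher in members in both libraries. Il10ra, the interleukin-10 receptor, was at 93.5 against 27.9 CPM in KO and 104 against 23.7 CPM in flox. The serpin Serpina3g was at 94.4 against 19.5 CPM in KO and 120.1 against 12.5 CPM in flox. Epha3, an ephrin receptor, was at 59.7 against 6.37 CPM in KO and 54.7 CPM against no UMI in flox, where it was at least 30.7-fold higher with a floor of 3 counts over the class. The other named genes in this direction were Ier3, Hip1, Ttc39c and Wdr95, at 49.0 to 159 CPM in members, and the immunoglobulin light chain gene Igkc, at 53.4 against 10.7 CPM in KO and 80.9 against 3.56 CPM in flox.

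Named and listed genes that were lower included Ccr7, a homing receptor of naive and central memory T cells. It was at 16.9 CPM in KO members against 229 CPM in KO Gzmk-negative cells, and at 16.3 against 194 CPM in flox. Lef1, a naive T cell factor, was at 112 against 677 CPM in KO and 142 against 608 CPM in flox. Satb1, a chromatin organiser of young T cells, was at 61.4 against 579 CPM in KO and 149 against 797 CPM in flox. Dapl1 was at 17.8 against 203 CPM in KO and 14.7 against 179.8 CPM in flox, and the sialyltransferase gene St6gal1 at 4.45 against 86.3 CPM in KO and 5.72 against 92.0 CPM in flox. Igfbp4 was at 8.91 against 108 CPM in KO and without a UMI against 55.2 CPM in flox. Auts2 and Tmem108 had 1 and 2 UMIs in KO members and none in flox members. The other named genes in this direction were Igf1r, Actn1, Ramp1, Ifngr2, Dusp10 and Rapgef4.

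Against the Klrg1 class fewer genes stood apart in both libraries, 6 higher in members (0.0825% of 7277) and 17 lower (0.234%). The 6 named lower genes were Gzma, Gzmb, Cx3cr1, Zeb2, Klre1 and Ddit4. Gzma was at 645 CPM in KO members and 4139 CPM in KO Klrg1 cells, and at 50.6 CPM in flox members and 1724 CPM in flox Klrg1 cells. Gzmb was at 202 against 803 CPM in KO and 107 against 423 CPM in flox. Cx3cr1, a receptor of circulating effector cells, was at 90.8 against 466 CPM in KO and 40.0 against 210.4 CPM in flox. Zeb2, a factor of terminal effector cells, was at 188 against 753 CPM in KO and 72.7 against 439 CPM in flox. Klre1 encodes a killer cell lectin, and Ddit4 is a stress-response gene. On the other side Xcl1, a chemokine for cross-presenting dendritic cells, was at 223 against 39.8 CPM in KO and 165 against 46.2 CPM in flox. Gpr183, an oxysterol receptor that guides migration, was at 427 against 109.5 CPM in KO and 582 against 262 CPM in flox.

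Against the Pdcd1 class, 9 genes (0.1% of 8960) were higher in members in both libraries and 22 (0.246%) were lower. Tox was at 331 CPM in KO members and 906 CPM in KO Pdcd1 cells, and at 498 CPM in flox members and 957 CPM in flox Pdcd1 cells. The inhibitory receptor gene Havcr2 was at 14.3 against 38.1 CPM in KO and 4.08 against 32.6 CPM in flox. Rgs16, Spry2 and the gamma chain segment Tcrg-C2 were also lower in members. Ly6c2, a surface marker of memory CD8 T cells in mice, was higher, at 562 against 317 CPM in KO and 694 against 351 CPM in flox. Il12rb2, the interleukin-12 receptor chain, was at 51.7 against 23.6 CPM in KO and 40.0 against 7.49 CPM in flox.

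**Figure D2:**
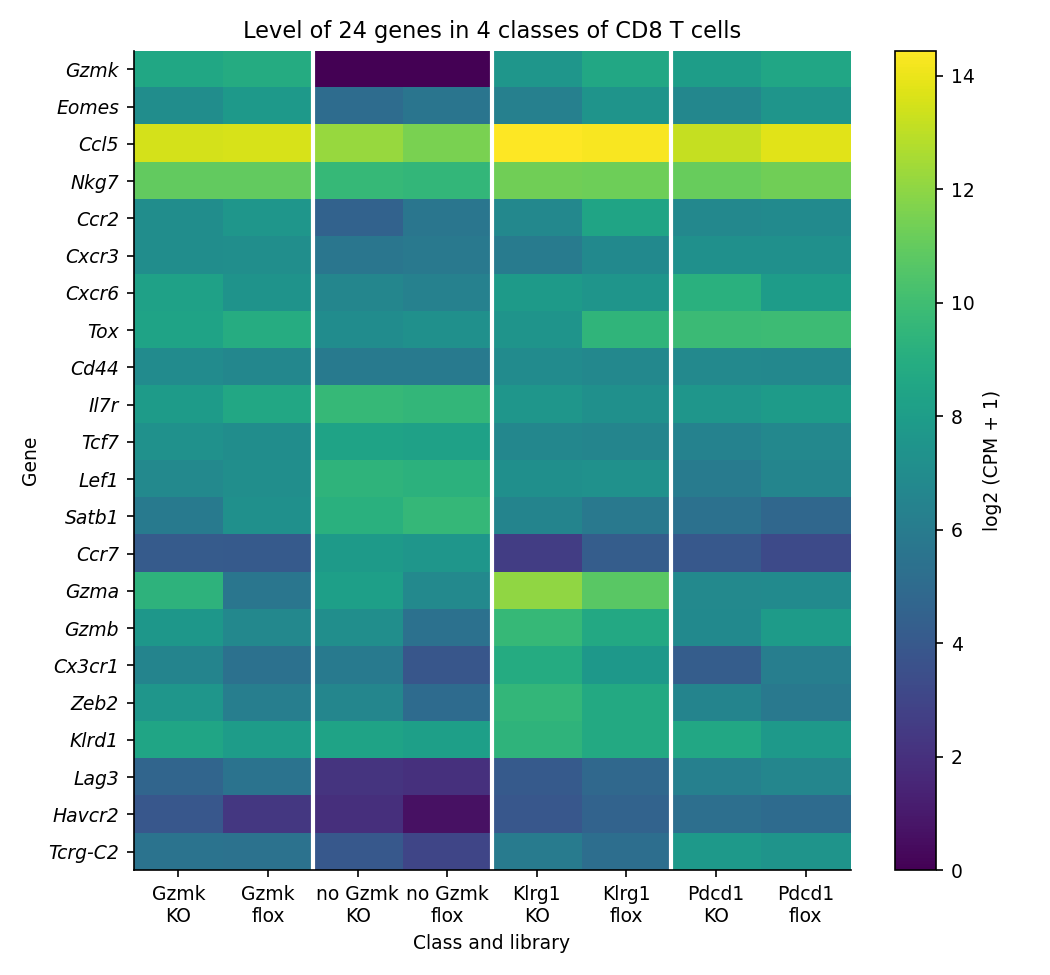
Levels of 22 genes, as log2(CPM + 1) in colour, in the Gzmk cells and 3 other CD8 classes of the KO library and the flox library. Gzma, Gzmb, Cx3cr1 and Zeb2 were highest in the Klrg1 class, and Lef1, Satb1 and Ccr7 in the class without Gzmk.

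Members were then compared between the libraries, over the 8270 genes whose UMIs, summed over both libraries, reached 20. In KO members, 41 genes were higher past the fold (0.496%) and 39 were lower (0.472%). The median log2 ratio of all genes was 0.02, with 4332 genes higher in KO and 3938 lower. The interval of the ratio excluded 1 for 514 genes higher in KO (6.22%) and 503 lower (6.08%). The 3 named genes with the lowest ratios were Rsad2, Slfn5 and Iigp1, and the 3 with the highest were H2-Ab1, Gzma and Cd74.

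Type I interferons are antiviral cytokines that act on nearly every cell and switch on a common set of genes. All 29 measured genes of a list of 32 such genes were lower in KO members, 25 with an interval below 1 and 15 past the fold. Their median log2 ratio was -1.04, beside 0.02 over all genes. Of all genes, 6.08% had an interval below 1 and 0.472% were lower past the fold.

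Rsad2 (viperin, an inhibitor of virus replication) had 3 UMIs in 2 KO members and 58 UMIs in 19 flox members. Its level was 2.67 CPM in KO members and 47.4 CPM in flox members, a ratio of 0.0564 (0.0113 to 0.173). Usp18, which removes the ubiquitin-like protein ISG15 from its targets, was at 11.6 CPM in KO members and 68.6 CPM in flox members. Slfn5, a Schlafen family gene, was at 8.91 CPM in KO members and 61.3 CPM in flox members. These were the strongest differences of the list, between 5.93-fold and 17.7-fold lower in KO.

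Ifit1, which binds viral RNA, was at 26.7 CPM in KO members and 123 CPM in flox members, in 11 KO cells and 36 flox cells. Ifit3, a partner of Ifit1, was at 61.4 CPM in KO members and 193 CPM in flox members. Its neighbour Ifit3b, a close paralog with which reads could be shared, was at 11.6 CPM in KO members and 42.5 CPM in flox members. Irf7, the factor that amplifies the interferon response, was at 46.3 CPM in KO members and 116 CPM in flox members. Isg15 itself was at 115 CPM in KO members and 272 CPM in flox members, a ratio of 0.422 (0.342 to 0.519). Of the remaining list genes, Bst2, Zbp1, Ifi206, Slfn1, Rtp4, Ly6a and Ifi27l2a had ratios of 0.445 to 0.556. The smallest difference of the list was that of Slfn2, at a log2 ratio of -0.05. Ddx60, Ms4a4c and the interferon-inducible GTPases Iigp1 and Irgm2, named outside the type I list, were 2.54-fold to 6.88-fold lower in KO.

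The promoters of 4 of these genes, picked as examples, are shown with a motif of interferon-induced genes. Each line gives the 250 bases before the start site from RefSeq (GRCm38.p6), with capitals at matches to GAAA and GAAA parted by any 2 bases, or to the reverse complement. This is the core of the interferon-stimulated response element, and overlapping matches were joined. Rsad2 lies at chr12:26456453-26456702 (minus strand), Ifit1 at chr19:34640639-34640888 (plus), Ifit3 at chr19:34583279-34583528 (plus) and Isg15 at chr4:156200819-156201068 (minus).
Rsad2: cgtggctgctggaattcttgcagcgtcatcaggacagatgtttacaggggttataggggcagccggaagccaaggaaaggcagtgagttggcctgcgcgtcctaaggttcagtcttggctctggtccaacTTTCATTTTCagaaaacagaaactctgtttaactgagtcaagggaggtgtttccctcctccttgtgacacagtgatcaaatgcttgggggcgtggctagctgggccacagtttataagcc
Ifit1: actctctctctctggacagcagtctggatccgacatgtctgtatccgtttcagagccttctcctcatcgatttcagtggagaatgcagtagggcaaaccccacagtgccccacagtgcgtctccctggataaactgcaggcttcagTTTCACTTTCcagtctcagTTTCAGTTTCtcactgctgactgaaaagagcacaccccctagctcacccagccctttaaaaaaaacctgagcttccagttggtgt
Ifit3: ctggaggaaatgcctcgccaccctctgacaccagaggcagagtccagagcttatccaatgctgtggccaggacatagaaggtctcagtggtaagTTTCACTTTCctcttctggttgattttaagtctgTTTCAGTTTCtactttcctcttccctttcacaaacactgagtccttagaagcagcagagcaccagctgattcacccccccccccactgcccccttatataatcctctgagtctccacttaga
Isg15: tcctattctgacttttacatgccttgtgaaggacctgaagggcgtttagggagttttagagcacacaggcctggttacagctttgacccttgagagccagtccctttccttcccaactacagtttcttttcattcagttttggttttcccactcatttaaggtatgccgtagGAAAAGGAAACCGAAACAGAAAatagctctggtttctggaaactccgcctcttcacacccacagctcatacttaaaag
Rsad2 held 1 match, at base -120, Ifit1 held 2 matches, at -104 and -85, Ifit3 held 2, at -156 and -122, and Isg15 held 3 overlapping ones, at -78, -72 and -66. The motif was found in 14 of the 23 measured list genes that had a promoter in the table (60.9%), and in 228 of 6596 measured genes (3.46%). Over all RefSeq promoters it was in 978 of 32851 windows (2.98%). The list was made of interferon-induced genes, so its share describes the list and not the difference between KO and flox.

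The interferon difference was not spread evenly over the cells. Summed over the list, the median KO member had 20.3 interferon-induced UMIs per 10000 and the median flox member 27.5. At the upper quartile the values were 29.3 in KO and 50.2 in flox. At least 50 per 10000 were found in 11 of 131 KO members (8.40%, 4.27 to 14.5) and 35 of 139 flox members (25.2%, 18.2 to 33.2). The values at the lower quartile were 12.95 in KO and 19.4 in flox. The libraries thus differed in the share of cells with a high interferon level, but the difference was not limited to those cells.

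A high level was most frequent among the few male flox members. Of the 35 high flox cells, 14 were male, 13 were female and the rest held transcripts of neither sex. Among male cells, 5 of 59 KO members (8.48%, 2.81 to 18.7) and 14 of 20 flox members (70.0%, 45.7 to 88.1) reached 50 per 10000, and the medians were 20.3 in KO and 103 in flox. Among female cells, 3 of 43 KO members (6.98%) and 13 of 101 flox members (12.9%) did, and the medians were 19.4 in KO and 24.9 in flox. The median log2 ratio of the list was -0.79 in female cells and -1.96 in male cells. For Ifit3 the ratio was 0.485 in female cells (0.264 to 0.841) and 0.101 in male cells (0.0657 to 0.152), so its interval stayed below 1 in each sex. For Ifit1 it was 0.488 in female cells, with an interval that included 1 (0.165 to 1.20), and 0.0712 in male cells. How many mice gave the 20 male flox members is not known, and the part of single mice in this difference was not tested.

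**Figure D3:**
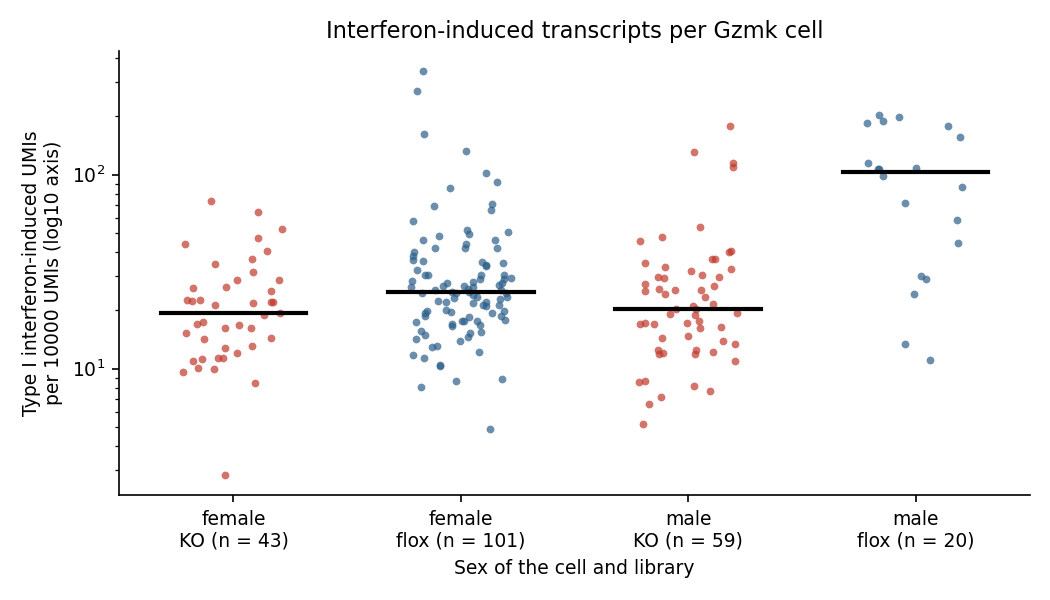
Interferon-induced UMIs per 10000 UMIs of each Gzmk cell (log10 y axis) by the sex of the cell and library, with 1 dot per cell and a black bar at the median; cells of neither or both sexes are not drawn. The 20 male flox cells have a median of 103, and the medians of the other 3 groups are 19.4, 24.9 and 20.3.

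Isg15, Irf7 and Ly6a belong to the list by which the cells were split, so their levels in high and low cells describe that split. In the cells with at least 50 per 10000, Isg15 was at 705 CPM in the 11 KO cells and 911 CPM in the 35 flox cells. In the cells below that level it was at 65.6 CPM in KO and 72.9 CPM in flox. In the same lower cells Irf7 was at 40.5 CPM in KO and 57.9 CPM in flox. Ly6a was there at 158 CPM in KO and 249 CPM in flox. Gzmk was at 543 CPM in the high KO cells and 381 CPM in the other KO cells, and at 454 CPM in the high flox cells and 476 CPM in the other flox cells. Ccl5 was lower in the high cells, at 8255 CPM in KO and 7625 CPM in flox, against 11732 CPM in the other KO cells and 13299 CPM in the other flox cells. None of the 11 high KO cells held Gzma, and 7 of the 35 high flox cells did.

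The same list was lower in KO in the neighbouring CD8 classes. It was lower for 27 of 28 measured genes in the Gzmk-negative class, with a median log2 ratio of -0.55, and for all 31 in the Pdcd1 class, with a median of -0.99. In the Klrg1 class 27 of 28 genes were lower, with a median of -1.52. The medians over all measured genes were 0.001 in the Gzmk-negative, 0.03 in the Pdcd1 and 0.09 in the Klrg1 class. The classes share libraries and mice, so they are not separate evidence. High male flox cells were seen there too, in 17 of 30 male flox Pdcd1 cells and 47 of 188 female ones. Among B cells of the flox library, 16 of 122 male cells (13.1%) and 13 of 332 female cells (3.92%) reached 50 per 10000.

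Genes induced mainly by interferon-gamma, the cytokine of T cells themselves, showed a weaker difference in the same direction. Of 19 measured genes 17 were lower in KO members, 8 with an interval below 1 and 2 past the fold, with a median log2 ratio of -0.28. Among all genes, an interval below 1 was found for 6.08%. The median was -0.28 in female cells and -0.92 in male cells. Ifng was higher in KO members, at 207 CPM in KO and 117 CPM in flox, a ratio of 1.77 (1.43 to 2.19). It was detected in 68 KO members (51.9%) and 61 flox members (43.9%). The ratio was 1.84 in female cells and 1.13 in male cells, where the interval included 1 (0.787 to 1.66).

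**Figure D4:**
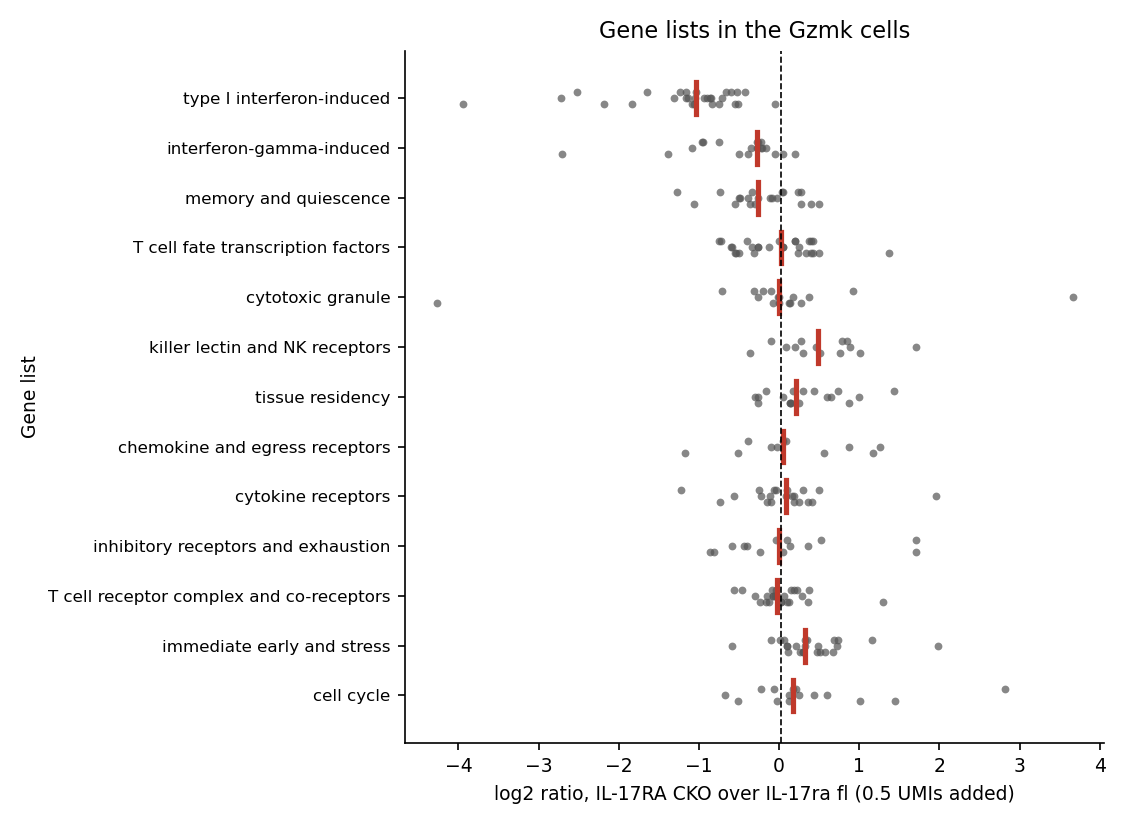
Ratio of KO over flox in Gzmk cells (log2, x axis) for each measured gene of 13 lists (rows), with 1 dot per gene, a red bar at the list's median and a dashed line at the median of all genes, 0.02. The type I interferon list lies wholly below 0, with its median at -1.04, and the killer lectin list has its median at 0.48.

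Cytotoxic granule genes differed in direction. Gzma (chr13:113093825-113100981, minus strand) encodes granzyme A, whose gene lies next to Gzmk. It was at 645 CPM in KO members and 50.6 CPM in flox members, a ratio of 12.7 (9.81 to 16.8). It was found in 35 KO members (26.7%) and 15 flox members (10.8%), against 3.18% of KO B cells and 1.37% of flox B cells. The ratio was 12.4 in female cells and 86.5 in male cells. Gzmb, granzyme B, was at 202 CPM in KO members and 107 CPM in flox members, a ratio of 1.89 (1.52 to 2.36). Its ratio was 2.63 in female cells and 11.2 in male cells, both above that of all members. Cells without a called sex entered only the ratio of all members. Flox members held 62 Gzma UMIs and 131 Gzmb UMIs in all, and 20 flox members were male. The male ratios of both genes therefore rest on few flox cells. Prf1, the pore-forming perforin, was at 99.7 CPM in KO members and 115 CPM in flox members, and its interval included 1 (0.670 to 1.12). Gzmc had 1 UMI in KO members and 31 UMIs in flox members, all 31 in 1 cell. Over the 17 measured granule genes, 7 were higher and 10 lower in KO, 2 and 1 of them past the fold, with a median of 0.00.

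The Gzma difference lay in a subset of cells that differed in more than Gzma. The 35 KO members with a Gzma UMI had 649 CPM of Gzmb, and the 96 without had 67.2 CPM. In flox the values were 251 CPM in the 15 cells with Gzma and 89.7 CPM in the others. Zeb2 was at 403 CPM in KO cells with Gzma and 123 CPM in KO cells without, and at 144 and 64.1 CPM in the same flox cells. Ccl4 was at 1919 CPM in KO cells with Gzma and 323 CPM in those without, and Cx3cr1 at 226 and 49.9 CPM. In flox, Ccl4 was at 380 CPM with Gzma and 268 CPM without. Eomes was lower in cells with Gzma, at 69.1 CPM against 157 CPM without Gzma in KO and 129 against 236 CPM in flox. Tcf7 differed in direction, at 80.6 CPM with Gzma and 179 CPM without in KO, and at 152 CPM with and 130 CPM without in flox. Il7r was at 203 against 249 CPM in KO and 547 against 380 CPM in flox. When the members with Gzma were left out, the ratio of Gzmb was 0.750 and that of Ccl4 was 1.21. The Klrg1 class, at 4139 CPM of Gzma in KO and 1724 CPM in flox, was also the larger share of CD8 T cells in KO, and the part of Klrg1 cells whose Klrg1 RNA was not caught was not tested.

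Chemokine, tissue residency and NK receptor genes were partly higher in KO. Of 4 measured chemokine genes 3 were higher, 1 past the fold. Ccl4, which attracts T cells and monocytes, was at 694 CPM in KO members and 280.2 CPM in flox members, a ratio of 2.48 (2.18 to 2.82), in 84 KO cells and 76 flox cells. Xcl1 was at 223 CPM in KO members and 165 CPM in flox members, while the ratio of Ccl5 was 0.959 (0.937 to 0.982). Cxcr6, a receptor of tissue-lodged T cells, was at 311 CPM in KO members and 169.9 CPM in flox members, a ratio of 1.83 (1.54 to 2.18). Itga1, the alpha chain of the collagen-binding integrin VLA-1, was at 168 CPM in KO members and 84.1 CPM in flox members, with an interval of the ratio of 1.57 to 2.57. Of 18 measured tissue residency genes 14 were higher in KO, 9 with an interval above 1 and 2 past the fold, at a median log2 ratio of 0.21. The other 4 were lower, 2 with an interval below 1. Cd69 was lower, at 211 CPM in KO members and 254 CPM in flox members, in 54.2% of KO and 65.5% of flox members. Itgae had 14 UMIs in KO members and 5 in flox members, too few to be measured. Over all genes measured, 4332 of 8270 were higher in KO, 6.22% with an interval above 1 and 0.496% past the fold. In the other classes the residency list had medians of 0.24 in Gzmk-negative, 0.24 in Klrg1 and 0.56 in Pdcd1 cells. A positive median was thus not particular to the members.

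Of 14 killer lectin and NK receptor genes 12 were higher in KO, 9 with an interval above 1 and none past the fold, at a median of 0.48. Over all genes, 4332 of 8270 were higher in KO and 6.22% had an interval above 1. Klre1 was at 126 CPM in KO members and 67.8 CPM in flox members, a ratio of 1.85 (1.40 to 2.46). Klrd1, the CD94 chain that pairs with NKG2 receptors, was at 358 CPM in KO members and 252 CPM in flox members, a ratio of 1.42 (1.22 to 1.66). Cd226, an activating adhesion receptor, was at 177 CPM in KO members and 105 CPM in flox members. The medians of this list in the other classes were 0.91 in Gzmk-negative, 1.01 in Klrg1 and 0.79 in Pdcd1 cells, so a positive median was measured there as well. Both sexes gave a positive median in members, 0.44 in female and 0.68 in male cells.

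The other named genes higher in KO were a mixed group. Zeb2 was at 188 CPM in KO members and 72.7 CPM in flox members, and its ratio was 3.55 in female cells and 1.72 in male cells. Lgals3, the sugar-binding galectin-3, was at 171 CPM in KO members and 50.6 CPM in flox members, a ratio of 3.38 (2.52 to 4.57). Vim, the intermediate filament vimentin, was at 722 CPM in KO members and 430.5 CPM in flox members, a ratio of 1.68. Slamf1, Chn2, Cyfip1 and Cx3cr1 had ratios of 2.27 to 3.58 at 41.0 to 90.8 CPM in KO members.

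The largest ratio in the named genes was not shared by the members. H2-Ab1, a chain of MHC class II, was at 194.1 CPM in KO members and 8.17 CPM in flox members, and Cd74, its invariant chain, was at 411 CPM in KO members and 44.1 CPM in flox members. A single KO cell held 91.3% of the KO members' H2-Ab1 UMIs and 93.9% of their Cd74 UMIs. The 4 KO members with at least 3 class II UMIs, at a median of 18745 UMIs per cell, held 96.1% of the KO members' class II UMIs. Without the class II-bearing members of both libraries, the ratio was 0.621 for Cd74 and 1.40 for H2-Ab1, and the genes higher in KO past the fold numbered 19 in place of 41. A doublet caller marked 55 KO cells (1.38%) and 18 flox cells (0.527%) among all kept cells, and no member.

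Of 21 measured genes of memory and quiescence 14 were lower in KO members and 7 higher, 11 of the lower ones with an interval below 1 and 1, Satb1, past the fold. The share of all genes with an interval below 1 was 6.08%. The median log2 ratio was -0.26, with -0.40 in female cells and -0.29 in male cells. Il7r was at 239 CPM in KO members and 398 CPM in flox members, with an interval of the ratio of 0.515 to 0.698. The ratio was 0.437 in female cells (0.328 to 0.574) and 0.821 in male cells, where the interval included 1 (0.619 to 1.10). Satb1 was at 61.4 CPM in KO members and 149 CPM in flox members, a ratio of 0.413 (0.309 to 0.548), and it was below 1 in each sex. Bach2, a repressor of effector genes, had a ratio of 0.685 (0.543 to 0.861). Tcf7 and Klf2, a factor that keeps T cells circulating, were the other way: Tcf7 was at 156 CPM in KO members and 132 CPM in flox members, with an interval that included 1, and Klf2 at 402 CPM in KO and 305 CPM in flox, a ratio of 1.32 (1.15 to 1.52). In the Gzmk-negative class the median of this list was 0.08, with 14 of 22 genes higher.

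Among the fate factors and inhibitory receptors, the genes lower in KO included Eomes, Tox and Ctla4. Tox was at 331 CPM in KO members and 498 CPM in flox members, a ratio of 0.665 (0.583 to 0.758). Ctla4, an inhibitory receptor that competes with CD28, was at 88.2 CPM in KO members and 160.1 CPM in flox members, a ratio of 0.551 (0.428 to 0.705). Lag3, which binds MHC class II, was at 24.9 CPM in KO members and 44.1 CPM in flox members, a ratio of 0.565 (0.345 to 0.908). Id2, an inhibitor that favours effector cells, was at 448 CPM in KO members and 346 CPM in flox members. Of 28 fate factors 14 were higher and 14 lower, 5 with an interval above 1 and 10 below. Of 14 inhibitory receptor genes 7 were higher and 7 lower, 3 with an interval above 1 and 3 below. Both lists had medians near 0. The highest ratio of the inhibitory receptor list was that of Havcr2. It was at 14.3 CPM in KO members and 4.08 CPM in flox members, on 16 KO and 5 flox UMIs.

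Immediate early genes, which respond within minutes to receptor signals and to tissue handling, were listed together with stress genes. This list differed with the sex of the cells. Of its 24 measured genes 22 were higher in KO members, 16 with an interval above 1, at a median log2 ratio of 0.32. An interval above 1 was found for 6.22% of all genes. The only list gene past the fold was the heat shock gene Hspa1a, at a log2 ratio of 1.98. The lowest was Fosb, at -0.59. Nr4a1, induced by T cell receptor signals, was at 187 CPM in KO members and 113 CPM in flox members, and Dusp2, a phosphatase of activated lymphocytes, at 340.2 CPM in KO and 213 CPM in flox. The median was -0.07 in female cells and 0.44 in male cells, so the list was not higher in KO among female cells. Outside the members the list had medians of 0.27 in Gzmk-negative, 0.13 in Klrg1 and 0.44 in Pdcd1 cells.

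**Figure D5:**
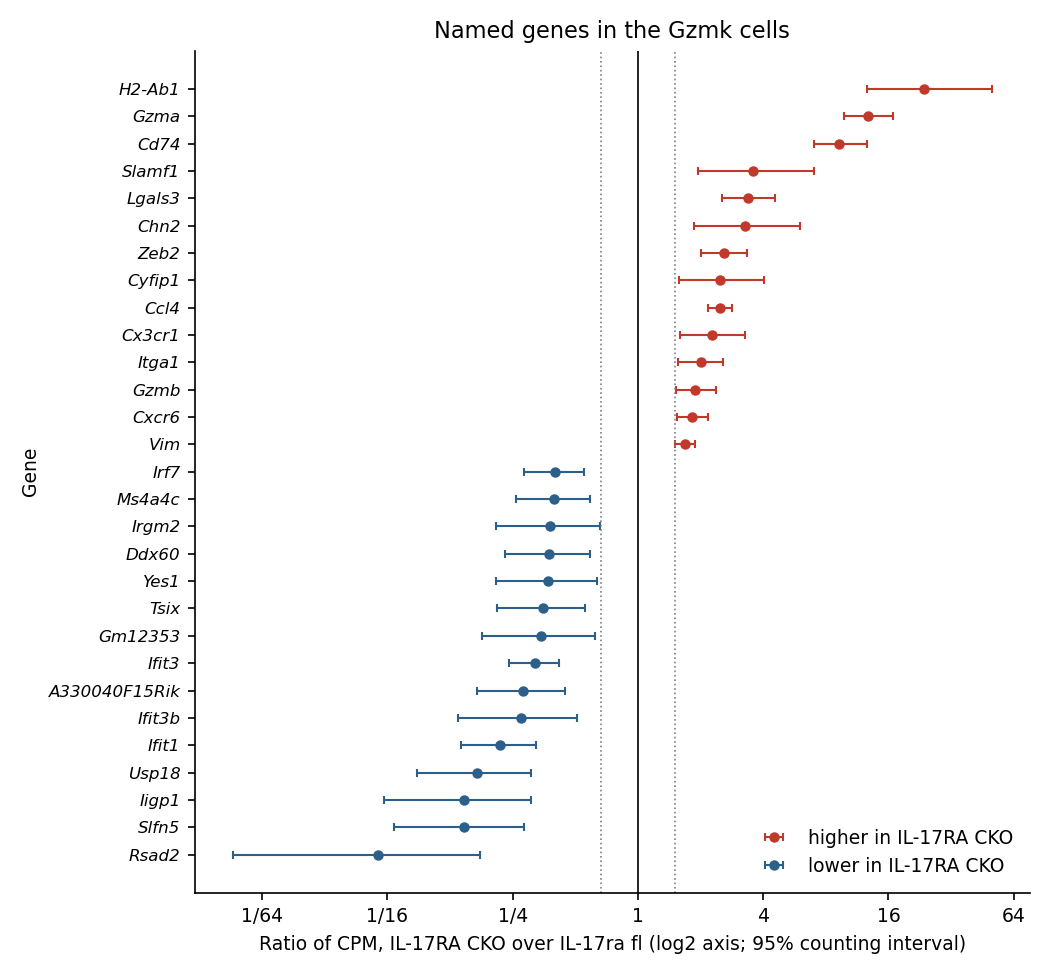
Ratio of CPM in KO over flox Gzmk cells (log2 x axis) for the 29 named genes (rows), with points for ratios, lines for exact 95% counting intervals and dotted lines at 1.5-fold. Gzma stands at 12.7 on the right and Rsad2 at 0.0564 on the left, and H2-Ab1 and Cd74 rest mainly on 1 KO cell.

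Variable segments of the T cell receptor were caught in a minority of members, since reads came from transcript 3' ends. An alpha segment was seen in 48 of 131 KO members (36.6%) and 33 of 139 flox members (23.7%), spread over 25 segments in each library. A beta segment was seen in 37 KO members (28.2%) and 47 flox members (33.8%), over 16 segments in KO and 17 in flox. No beta segment was seen in more than 5 KO members or 9 flox members; Trbv12-2 was the most frequent in flox. Near-identical segments cannot be told apart by such counts, and no clone can be read from them.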

How the data were processed

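The deposited files hold UMI counts per gene and barcode, made with Cell Ranger on mm10, per the submitters' processing notes. Per the file headers, the KO matrix came from Cell Ranger 7.0.1 and the flox matrix from Cell Ranger 4. The labels name version 2 of the 10x 3' kit. The KO matrix lists 4096 barcodes with a UMI and the flox matrix 783281, so only the KO matrix was deposited after a filter on barcodes. The flox number exceeds what a barcode list of that kit version holds, so the kit version of the flox library is uncertain. No source used here says whether intronic reads were counted. The median log2 ratio was 0.06 in the fifth of genes with the shortest introns and -0.08 in the fifth with the longest.

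Cells had at least 1000 UMIs, 300 genes and under 10% mitochondrial UMIs, which kept 3982 KO and 3418 flox barcodes. The UMIs of each class in a library were added up and divided by the class total (CPM). Ratios have conditional binomial intervals, levels exact Poisson intervals, shares Clopper-Pearson intervals and differences of shares Newcombe intervals, all at 95%, and log2 ratios had 0.5 UMIs added. Genes needed 20 UMIs in both libraries together. Named genes had at least 60 UMIs, 30 CPM and a UMI in 10% of cells of the higher library, and an interval beyond 1.5-fold. They were ranked by ratio, up to 15 per direction between libraries, 12 against Gzmk-negative cells and 6 against the other classes, and list genes were named besides. Of the genes lower in KO, 28 met these minima. Xist and Y-linked genes were used for sex only. Tsix, antisense to Xist, and A330040F15Rik, Gm12353 and Yes1 also met the rule.

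The members and the gene lists were chosen with earlier results of these data known, so no list is independent evidence of its direction. Doublets were scored with scrublet in scanpy 1.11.5 and not removed. The ratio script was tested on simulated data. Gene positions were matched to GENCODE for 32158 of 32285 genes. Python 3.11.15, numpy 2.4.6, scipy 1.17.1 and pandas 2.3.3 were used.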

Additional observations from a re-analysis of the deposited data

Results flagged for a closer look

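Female and male members pointed in opposite directions for 5 of the listed genes, with an interval of the KO over flox ratio that excluded 1 in each sex. The difference between the sexes was not tested, and each ratio compares cells of 1 KO library with 1 flox library. The ratio of Ccl5 was 0.882 in female and 1.25 in male members. The ratio of Cd8b1 was 1.14 in female and 0.827 in male members. For Fos it was 0.494 in female and 1.51 in male members, and for Rel, a subunit of NF-kappaB, 0.516 in female and 1.89 in male members. For Tyrobp, an adaptor of NK and myeloid receptors, it was 0.356 in female and 3.38 in male members.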

How the results depend on the processing

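No paired analysis was possible because each group was 1 library. The share of members among kept cells, KO minus flox, was -1.75 points in female cells and 0.554 in male cells. Thinned to 2000 UMIs and gated again, which changed the set of cells, the share among CD8 T cells differed by -12.8 points. The 41 genes higher in KO numbered 15 in female cells, 19 without class II-bearing members, 65 with a minimum of 10 UMIs per gene and 23 with a minimum of 50. The 39 genes lower in KO numbered 72 in male cells. Against Gzmk-negative cells, male cells gave 13 genes higher and 11 lower in both libraries. The type I interferon median was -1.96 in male cells, and the immediate early and stress median was -0.0702 in female cells. The cell cycle median was 0.18 in all members, -0.00853 in members with at least 2 Gzmk UMIs, -0.81 without class II-bearing members and -0.33 without members with Gzma. The ratio of Cd74 was 0.672 in female cells, 0.621 without class II-bearing members and 0.58 without its highest cell. That of Gzmb was 0.750 without members with Gzma, and that of Yes1 was 1.42 in male cells. Leaving out class II-bearing or Gzma-holding members was chosen after the data were seen. Of the 29 named genes, 9 stayed past the fold in the same direction in female cells and 15 in members with at least 2 Gzmk UMIs. Of the 28 that could be computed in male cells, 21 did. Scaling to the median ratio left 27 of 29 past the fold. Leaving out each gene's highest cell in the higher library left 18 of 29, with 10 weaker and 1 reversed. Without class II-bearing members 21 of 29 stayed past the fold, with 7 weaker and 1 reversed. Without members with Gzma 16 of 28 stayed, with 11 weaker and 1 reversed.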

Other observations

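A few cycling cells were among the members. Mki67, a marker of dividing cells, was found in 12 KO members and 9 flox members, at 57.9 CPM in KO and 28.6 CPM in flox. Hmgb2, a chromatin protein abundant in dividing cells, was at 819 CPM in KO members and 541 CPM in flox members, a ratio of 1.52. Of 15 measured cell cycle genes 10 were higher in KO members, 2 past the fold, at a median log2 ratio of 0.18. Of all genes, 0.496% were higher past the fold. The direction rests on few cells: the median was -0.81 without class II-bearing members and -0.33 without members with Gzma.

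Of 21 cytokine receptor genes 11 were higher in KO and 10 lower, with a median log2 ratio of 0.08. The interleukin-21 receptor gene Il21r was at 169 CPM in KO members and 119 CPM in flox members. The chemokine receptor gene Ccr2 was at 135 CPM in KO members and 193 CPM in flox members.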
